A study of Homo sapiens with 18 samples.

Results

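Transcripts of GDF15 and of 8 other genes of the TGF-beta family and its signalling were followed in MSTO-211H cells, a long-established human mesothelioma line, across treatment with piroxicam and cisplatin. The members were GDF15, INHBA, BMP2, BMP4, TGFB1, TGFB2, FST, ID1 and SMAD7. All probe sets of the HGU133A array whose only gene symbol in the platform annotation was one of these 9 were taken, which gave 17 of 22283 probe sets and 9 of the 11963 genes named by a single symbol. The list was drawn up with earlier results of these arrays known. Which differences guided it is not recorded. Those of P and P/C from untreated cells at 24 h were taken to be among them, so they are given below as a description, without a test of any member. The tests of the other comparisons may not be wholly independent of the choice either.

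The cells were left untreated or received piroxicam at 760 µM (P), cisplatin at 4.5 µg/mL (C) or the combination (P/C), for 8 h or 24 h before RNA extraction. Piroxicam blocks cyclooxygenases and is used against inflammation, and cisplatin is a platinum drug that damages DNA. Of the 18 arrays, 2 came from each group at 8 h, 2 from untreated cells, 2 from P/C, 3 from P and 3 from C at 24 h. All groups were the same line, seeded and cultured alike, and the P/C group received both drugs together at the doses used alone. Each array measured the RNA of a whole culture, so less RNA per cell and fewer cells of one kind cannot be told apart. All values below are log2 signals as deposited, or differences between them, and a difference of 1 is a doubling.

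Ligands of the TGF-beta family are secreted and bind pairs of type I and type II receptor kinases, which phosphorylate SMAD proteins. These enter the nucleus and change transcription, and among their target genes are ID1, which BMP signals induce and which holds back differentiation factors, and SMAD7, an inhibitory SMAD that limits the pathway. Follistatin, the product of FST, is a secreted protein that binds activins and keeps them from their receptors, and INHBA encodes a subunit of activin A. GDF15 is a distant member of the family that is induced by many kinds of cell stress, and its receptor GFRAL is found mainly in the hindbrain.

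The cell label was checked against markers. Of 14 mesothelial markers on the array 4 (CDH2, KRT18, KRT8 and VIM) had a median signal of at least 100 and the defining markers MSLN, WT1 and CALB2 did not, whereas none of 9 leukocyte and erythroid markers and none of 9 fibroblast and endothelial markers did. Some arrays stood apart from their group. The array labelled C 24 h replicate 1 had a correlation of −0.05 with its closest group mate, over deviations from the mean of all 18 arrays. Among the other groups at 24 h it lay nearest to an untreated array (0.3). A list of 9 p53 target genes lay only 0.21 above untreated cells on it (median), against 1.16 and 1.41 on the other C arrays at 24 h. The arrays of P/C at 24 h had a correlation of 0.27 with each other. Replicate 1 lay nearest to C 24 h replicate 3 (0.76) and replicate 3 nearest to P 24 h replicate 1 (0.78). Where leaving out one of these arrays moved a member's value by much, the value without it stands beside it. At 8 h too, arrays of a group differed. The P/C arrays of that time had a correlation of −0.2 with each other and the P arrays 0.21. P/C 8 h replicate 1 lay nearest to P 8 h replicate 1 (0.56) and P/C 8 h replicate 3 to P 8 h replicate 3 (0.63). The tests of P and P/C at 8 h rest on these arrays.

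Of the 17 probe sets 4 passed the filter stated in the study's methods, which asks for a log2 signal of 6.64 or more (a signal of 100) in at least 25% of arrays and an IQR of at least 0.25. These were GDF15 221577_x_at, FST 204948_s_at and 207345_at, and ID1 208937_s_at. The filter uses all arrays, so a member can pass through the groups where it is high. The other 13 probe sets, among them all those of INHBA, BMP2, BMP4, TGFB1, TGFB2 and SMAD7, did not reach a signal of 100 on any array. Their values ranged from 1.13 to 5.54, with array medians of 2.72 to 2.83 over all probe sets, and 10 of the 13 were below the median of the array on every array.

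**Figure D1:**
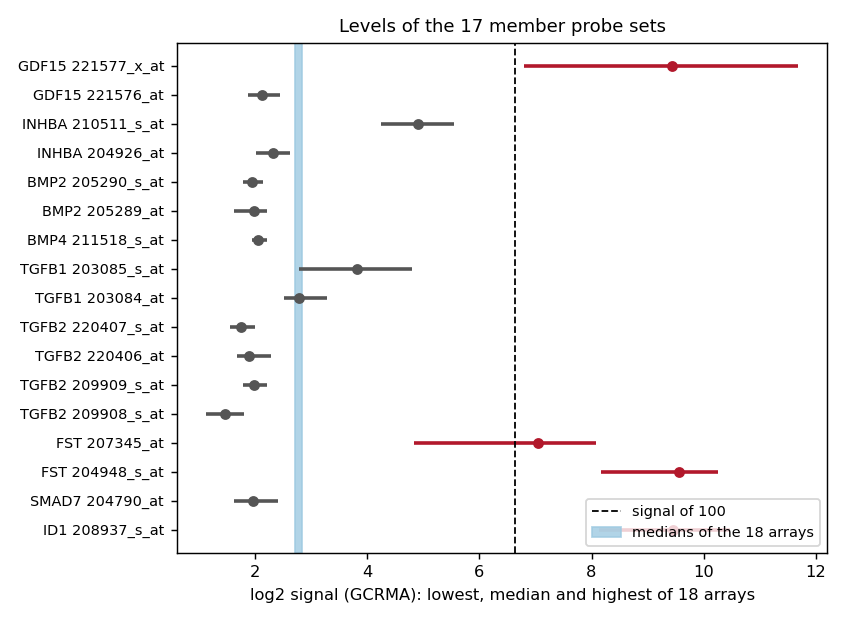
Range of the log2 signal over the 18 arrays for each of the 17 probe sets, grouped by gene, with the median as a point. The 4 red probe sets passed the filter, the dashed line is a signal of 100 (log2 6.64) and the blue band holds the medians of the 18 arrays. Levels of different probe sets depend on their probes and are not to be compared. The 13 grey probe sets end at 5.54 or below.

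Among the dim ligands, INHBA 210511_s_at had values of 4.25 to 5.54 and its group means ran from 4.45 (P/C at 8 h) to 5.28 (P at 24 h), with SDs of 0.19 to 0.74 within groups. In a fit of all 22215 probe sets without the controls its differences in the 13 comparisons lay between −0.42 and 0.34. The second INHBA probe set, 204926_at, was at 2.01 to 2.63. TGFB1 203085_s_at had the widest span of the dim probe sets, from 2.79 to 4.79. It was at 3.3 ± 0.38 (SD, n = 3) with P and 4.43 ± 0.29 (SD, n = 3) with C at 24 h, a difference of −1.13, the only one of a dim probe set past 1 on the log2 scale. The second TGFB1 probe set, 203084_at, stayed between 2.52 and 3.28. Over their 4, 2 and 1 probe sets TGFB2, BMP2 and BMP4 ranged from 1.13 to 2.29, 1.62 to 2.22 and 1.95 to 2.22, and no difference of theirs passed 0.37 in size. SMAD7 lay at 1.62 to 2.4, with means of 2.16 (P) and 2.23 (P/C) against 1.81 (untreated) and 1.81 (C) at 8 h, all below the array medians. At such signals a difference in transcript level cannot be detected reliably, and these values do not show that the genes were off.

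The results turn on GDF15, FST and ID1, so the 250 bases before their annotated starts are shown. They were taken from the RefSeq promoter windows of GRCh38.p14, in which 8 of the 9 members were found (BMP2 was not), and which were read for the sequence and not measured here. GDF15 lies at chr19:18385908-18386157, FST at chr5:53480379-53480628 and ID1 at chr20:31605039-31605288 in these windows, all on the plus strand. Capitals mark the TATA box (TATAAA, on the strand of the gene), the GC box core (GGGCGG) and the CCAAT box (CCAAT), the last 2 on both strands, and in the windows shown no match overlapped another.
GDF15: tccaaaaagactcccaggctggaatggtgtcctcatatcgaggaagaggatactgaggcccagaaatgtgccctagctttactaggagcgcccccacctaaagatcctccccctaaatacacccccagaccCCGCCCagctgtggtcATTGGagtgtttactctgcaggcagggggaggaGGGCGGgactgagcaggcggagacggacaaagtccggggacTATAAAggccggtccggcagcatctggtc
FST: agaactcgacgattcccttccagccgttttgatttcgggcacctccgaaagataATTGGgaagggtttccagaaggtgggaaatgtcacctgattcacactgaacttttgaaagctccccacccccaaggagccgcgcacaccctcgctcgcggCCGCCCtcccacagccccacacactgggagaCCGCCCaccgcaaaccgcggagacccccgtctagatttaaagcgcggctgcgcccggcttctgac
ID1: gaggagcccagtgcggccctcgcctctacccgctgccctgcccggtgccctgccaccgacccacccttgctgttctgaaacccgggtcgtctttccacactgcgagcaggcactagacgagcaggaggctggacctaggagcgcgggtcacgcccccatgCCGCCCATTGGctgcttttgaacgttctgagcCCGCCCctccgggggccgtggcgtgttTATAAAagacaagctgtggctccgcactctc

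The GDF15 and ID1 windows held TATAAA, starting at −29 and −31 from the annotated start (the base before it is −1), and the FST window did not. TATAAA was present for 5 of the 8 members, counting a match in any window of a gene, and in 6.8% of all 35116 windows of this length. A gene can have more than 1 window, so these counts of genes and shares of windows are not alike. GGGCGG was found in 5 of the 8 (42.6% of all windows) and CCAAT in 4 (32.0%). Neither TGATGNAA, the core of the composite site of CHOP and ATF4 (3.14% of all windows), nor GTCTAGAC, a palindrome bound by SMADs (0.182%), nor the p53 decamer motif (5.57%) was found in any of the 8, on both strands. This says only that these letters are not in these 250 bases.

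GDF15 had higher signals with every treatment at both times. At 8 h the untreated arrays were at 6.85 and 6.80, P at 8.68 and 9.21, C at 8.09 and 8.88, and P/C at 9.67 and 9.77. All 6 treated arrays thus lay above both untreated arrays, P/C was highest, and P and C overlapped. Of all probe sets 41.7% (P), 23.6% (C) and 35.4% (P/C) did not overlap with the untreated arrays of that time, in one direction or the other. At 24 h the untreated arrays were at 8.89 and 7.56, P at 10.49, 10.27 and 10.25, C at 9.01, 11.27 and 11.68, and P/C at 11.50 and 10.93. Again every treated array lay above both untreated arrays, but the lowest C array, replicate 1, was only just above the higher untreated array. The shares of all probe sets that did not overlap with untreated cells at 24 h were 61.6% (P), 31.9% (C) and 55.2% (P/C). A second GDF15 probe set, 221576_at, was at 1.88 to 2.45 on all arrays, below each array's median, and did not follow the first. The signal of GDF15 described here therefore comes from 1 probe set.

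**Figure D2:**
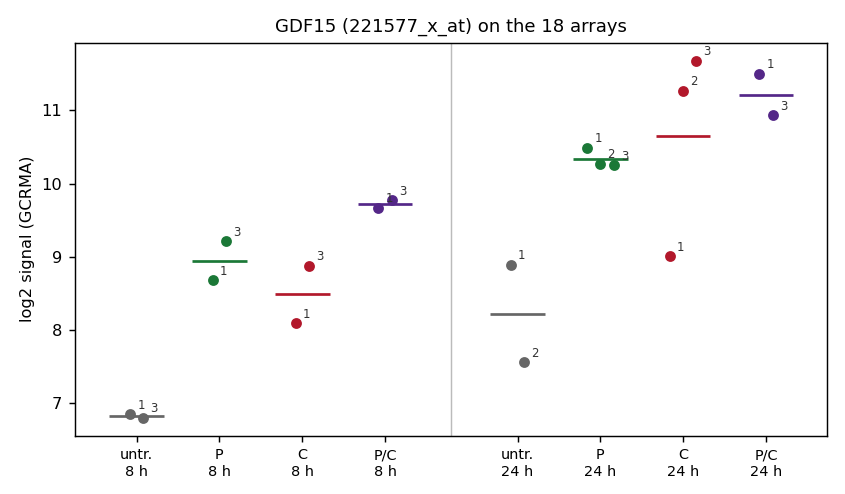
Log2 signal of GDF15 221577_x_at on each array (points, with the replicate number) and the mean of each group (lines), at 8 h on the left and 24 h on the right. Untreated cells at 8 h lay at 6.80 and 6.85 and all treated arrays of that time at 8.09 or above. At 24 h C replicate 1 (9.01) lies apart from the other C arrays.

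Each member was tested with limma on the 3057 probe sets that passed the filter, with 1 mean per group, and a probe set was called at a Benjamini-Hochberg adjusted p of at most 0.05 and a difference of at least 1. With P/C at 8 h GDF15 rose by 2.90 (SE 0.62, adjusted p = 0.0426, limma), the only one of the 4 member probe sets called, in a comparison with calls for 0.622% of all probe sets. For P alone at that time the difference was 2.12 (SE 0.62, adjusted p = 0.178) and with C 1.66 (SE 0.62, adjusted p = 1.0), both not called. For P no member passed, against 0.491% of all probe sets, and no probe set at all (0.0%) with C, where 35 had an unadjusted p under 0.05. As the P/C and single-drug comparisons share the untreated arrays, their values stand side by side and are not independent.

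The 4 groups at 8 h also allow the mean effect of each drug, over the arrays with and without the other drug. With piroxicam GDF15 rose by 1.68 (SE 0.44, adjusted p = 0.0391, limma), in a comparison that called 1.9% of all probe sets. The arrays with piroxicam were at 8.68 to 9.77 and those without at 6.80 to 8.88, so the sets overlapped through C replicate 3. The mean effect of cisplatin on GDF15 was 1.22 (SE 0.44, adjusted p = 0.999) with no call among all probe sets (0.0%, 48 at an unadjusted p under 0.05).

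At 8 h arrays with the same replicate number deviated together, so the fit was repeated on the 8 h arrays with the replicate number as a block. In this paired fit GDF15 was called with P (2.12, adjusted p = 0.00276, 2.36% of all probe sets called), with P/C (2.90, adjusted p = 0.000541, 3.01% called), for the mean effect of piroxicam (1.68, adjusted p = 0.000616, 2.39% called) and for that of cisplatin (1.22, adjusted p = 0.0354, 0.131% called). With C alone the adjusted p was 0.0944. This fit also left out the 24 h arrays, so its calls cannot be laid to the pairing alone. Without a block, on only the P and untreated arrays at 8 h, GDF15 was also called with P (adjusted p = 0.0169, limma). With the block and all arrays kept it was not called with P/C (adjusted p = 0.0626, limma). In the first fit, on all arrays without a block, the calls of GDF15 were not firm. Its adjusted p with P/C passed 0.05 without any single 8 h array or any single P array at 24 h (0.0575 to 0.275, differences of 2.85 to 2.94), and that of the mean piroxicam effect did so without the same arrays (0.0506 to 0.154, differences of 1.48 to 1.88). The difference hardly moved where a 24 h array was left out, since that changes only the shared estimate of spread.

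At 24 h GDF15 lay above untreated cells by 2.11 (SE 0.57) with P, by 2.43 (SE 0.57, adjusted p = 0.187, not called) with C and by 2.99 (SE 0.62) with P/C. The untreated arrays differed from each other by more than 1 on this scale, and without replicate 1 or replicate 2 of them the difference was 2.77 or 1.45 with P and 3.65 or 2.33 with P/C. Without P/C replicate 1 or replicate 3 the difference with P/C was 2.70 or 3.28. With C it depended on replicate 1, which stood apart. Without that array GDF15 rose by 3.25 (adjusted p = 0.000119, 4.02% of all probe sets called), whereas with it no probe set was called (0.0%, 421 at an unadjusted p under 0.05). That array was marked in part by its low p53 target genes, and GDF15 is known to respond to p53. The value without it is thus not an independent test. The test of C also shares the untreated arrays with the differences taken to have guided the choice of members. Among the 4 member probe sets 2 were past both limits with P (14.6% of all probe sets) and 2 with P/C (6.87%), in both cases GDF15 and FST 207345_at, and nothing is read from these counts since the members were chosen with them known.

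No difference in GDF15 between the treatments at 24 h was called. P/C exceeded P by 0.88 (95% interval −0.33 to 2.08, adjusted p = 0.406) and C by 0.56 (−0.65 to 1.77, adjusted p = 0.672), and P minus C was −0.31 (−1.39 to 0.77, adjusted p = 0.689). Without P/C replicate 1 or replicate 3, P/C minus P was 0.59 (adjusted p = 0.888) or 1.16 (adjusted p = 0.314), and P/C minus C was 0.27 (adjusted p = 0.857) or 0.85 (adjusted p = 0.842). The intervals on all arrays hold differences of more than 1, so they do not show equal levels. The order of C and P/C turned without C replicate 1 (P/C against C −0.26, adjusted p = 0.786), and P minus C was then −1.13 and called (adjusted p = 0.027, 12.8% of all probe sets called). The limit given above for leaving out that array holds here too. Ordered by their means the groups ran from untreated 8 h (6.83 ± 0.04) over untreated 24 h (8.23 ± 0.94), C 8 h (8.48 ± 0.56), P 8 h (8.94 ± 0.37), P/C 8 h (9.72 ± 0.07), P 24 h (10.34 ± 0.13) and C 24 h (10.65 ± 1.44) to P/C 24 h (11.21 ± 0.41; SD, n = 2 or 3). The ranges of untreated 24 h, C 8 h and P 8 h overlapped, as did those of P, C and P/C at 24 h in part.

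In untreated cells GDF15 was 1.40 higher at 24 h than at 8 h (SE 0.62, adjusted p = 0.827), with both 24 h arrays above both 8 h arrays, as 36.5% of all probe sets did not overlap between these groups. Without untreated 24 h replicate 1 or replicate 2 it was 0.74 or 2.06. No member was called there, against 0.0981% of all probe sets. The effects at 24 h were taken against untreated cells of the same time. The effect of C at 24 h exceeded that at 8 h by 0.77 (SE 0.84, adjusted p = 0.915), by 1.59 without C 24 h replicate 1 (adjusted p = 0.335) and by 0.10 without untreated 24 h replicate 2 (adjusted p = 0.995). On all arrays no probe set was called for this difference (0.0%, 78 at an unadjusted p under 0.05).

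FST, the activin binder, was measured by probe sets that did not move alike. On 207345_at the untreated arrays at 8 h were at 8.00 and 7.36, P at 7.21 and 6.76, C at 8.08 and 7.74, and P/C at 6.35 and 6.79. The 4 arrays with piroxicam thus all lay below the 4 without, a separation that 17.6% of all probe sets showed in one direction or the other. At 24 h the untreated arrays were at 7.27 and 7.25, P at 5.72, 6.57 and 5.40, C at 7.43, 7.18 and 6.91, and P/C at 6.17 and 4.84. The 5 arrays with piroxicam lay below the 5 without, as 11.4% of all probe sets were separated in one direction or the other, and nothing is read from this since the members were chosen with the P and P/C values at 24 h known.

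The test called FST 207345_at between the single drugs at 24 h, where P was lower than C, with a difference of −1.28 (SE 0.34, adjusted p = 0.0134, limma). In this comparison 2 of the 4 member probe sets and 10.9% of all probe sets were called. The P and P/C arrays at 24 h are among those taken to have guided the choice of members. This test, that of ID1 below and those of P/C against either drug are thus not independent of that choice. The call was lost without P replicate 3 (−1.03, adjusted p = 0.0702). The mean effect of piroxicam at 8 h was −1.02 (SE 0.29, adjusted p = 0.0544), just outside the limit, and in the paired fit of the 8 h arrays it was called (adjusted p = 0.00862). For P and P/C alone at 8 h the differences were −0.70 (adjusted p = 0.666) and −1.11 (adjusted p = 0.293). At 24 h FST 207345_at differed from untreated cells by −1.36 (SE 0.38) with P and −1.76 (SE 0.41) with P/C, the latter −2.42 without P/C replicate 1 and −1.09 without replicate 3. With C the difference was −0.09 (SE 0.38, adjusted p = 0.934).

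P/C against C at 24 h gave −1.67 for FST 207345_at (SE 0.38, adjusted p = 0.124) and −1.12 for FST 204948_s_at (SE 0.35, adjusted p = 0.168), with no member called and 0.0981% of all probe sets called. Both differences depended on the P/C array left out. Without replicate 1, which lay nearest to a C array, they were −2.33 (adjusted p = 0.00426) and −1.80 (adjusted p = 0.00811), both called, as were 6.31% of all probe sets. Without replicate 3 they were −1.01 (adjusted p = 0.695) and −0.44 (adjusted p = 0.833), and neither was called.

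FST 204948_s_at had values from 8.16 to 10.25 and was called in none of the comparisons on all arrays. At 8 h its groups overlapped, with the untreated arrays at 10.05 and 9.38, P at 10.06 and 9.28, C at 10.08 and 9.73, and P/C at 9.74 and 9.24. At 24 h the untreated arrays were at 9.53 and 9.59, P at 9.03, 9.19 and 9.47, C at 10.25, 9.94 and 9.71, and P/C at 9.53 and 8.16. Every P array was thus below every C array, as 44.2% of all probe sets did not overlap between P and C, with a mean difference of −0.74 (SE 0.32, adjusted p = 0.0977). The log2 signal of 204948_s_at minus that of 207345_at was 1.99 to 2.05 on the untreated and C arrays at 8 h and 2.45 to 3.39 on the P and P/C arrays. At 24 h it was 2.26 and 2.34 untreated, 2.76 to 2.82 with C and 2.61 to 4.07 with P or P/C. Whether the probe sets report different transcripts was not tested.

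ID1, an inhibitor of basic helix-loop-helix factors, separated the single drugs. At 8 h the untreated arrays were at 9.81 and 9.23, P at 9.95 and 10.47, C at 9.45 and 9.22, and P/C at 9.57 and 10.43. Both P arrays lay above both untreated arrays, where 41.7% of all probe sets did not overlap, and the C and P/C arrays overlapped with them. At 24 h the untreated arrays were at 9.42 and 9.47, P at 10.09, 9.61 and 9.92, C at 8.90, 8.64 and 8.31, and P/C at 8.14 and 9.23. P thus lay above and C and P/C below the untreated arrays, and the P and C arrays did not overlap, as for 44.2% of all probe sets. Against untreated cells 61.6% (P), 31.9% (C) and 55.2% (P/C) of all probe sets did not overlap.

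In the test of P against C at 24 h ID1 was higher with P by 1.26 (SE 0.29, adjusted p = 0.00716, limma), a 2.39-fold difference. This call was kept in every alternative run, with differences of 1.10 to 1.44 and adjusted p of 0.000197 to 0.0347. These runs rest on the P arrays at 24 h, which were taken to have guided the choice of members, so they do not remove that limit. Against untreated cells neither drug alone gave a difference past the limits. The difference was 0.43 (SE 0.33) with P and −0.83 (SE 0.33, adjusted p = 0.306) with C at 24 h, and at 8 h the mean effect of piroxicam was 0.68 (SE 0.26, adjusted p = 0.152). P/C minus P at 24 h was −1.19 (SE 0.33, adjusted p = 0.0703), where no member and 0.164% of all probe sets were called. Without P/C replicate 3, which lay nearest to a P array, this was −1.73 (adjusted p = 0.00695, 10.1% of all probe sets called), and without replicate 1 it was −0.65 (adjusted p = 0.701, not called). Against untreated cells P/C was at −0.76 (SE 0.36), and at −0.22 or −1.31 without replicate 1 or replicate 3.

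**Figure D3:**
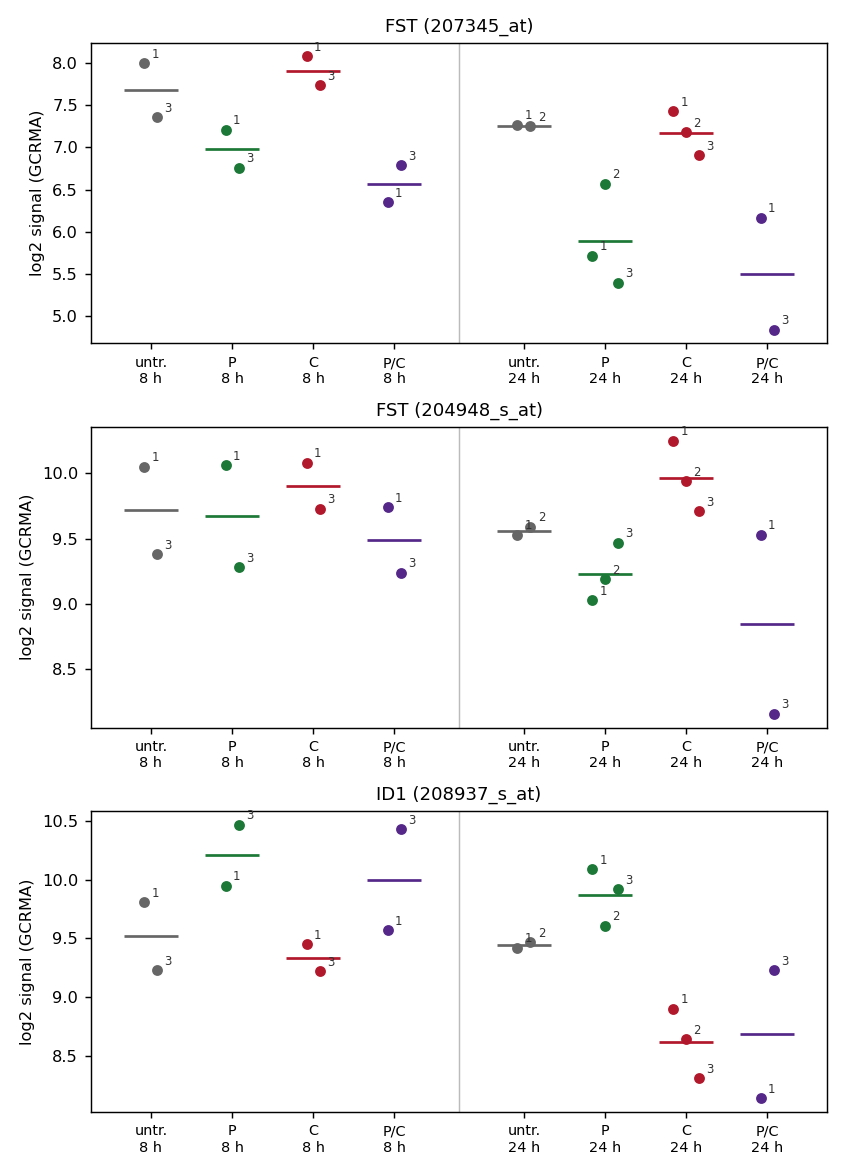
Log2 signal of FST 207345_at, FST 204948_s_at and ID1 208937_s_at on each array (points, with the replicate number) and the mean of each group (lines). In the top panel the arrays with piroxicam lie below those without at 8 h and at 24 h. Of all probe sets 17.6% (8 h) and 11.4% (24 h) showed such a separation in one direction or the other. The P and P/C values at 24 h were taken to have guided the choice of members in part. In the bottom panel the P arrays at 24 h (9.61 to 10.09) lie above the C arrays (8.31 to 8.90).

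**Figure D4:**
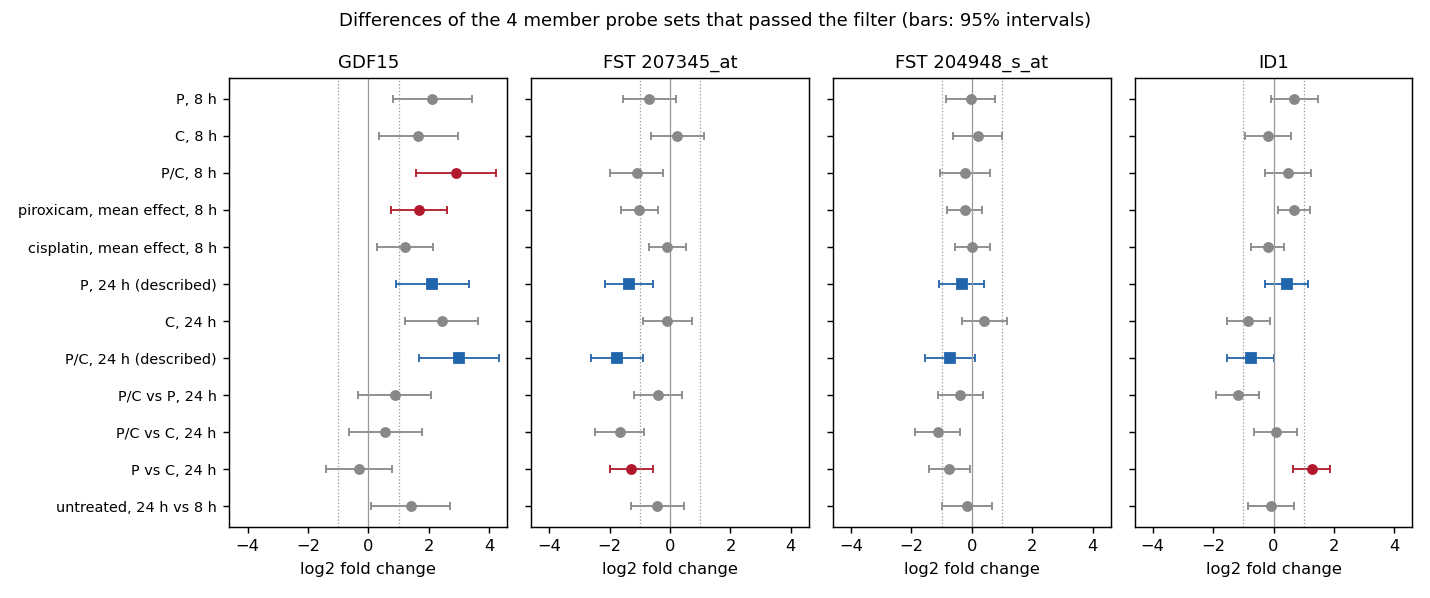
Log2 differences of the 4 member probe sets that passed the filter in 12 comparisons, with 95% intervals from the fit. Red points were called, grey points were tested and not called, and blue squares are the comparisons given without a test. GDF15 is above 0 in all 8 comparisons of treated with untreated arrays or of drug means, FST 207345_at lies between −1.76 and −0.70 with P or P/C against untreated cells, and ID1 differs in sign between P and C at 24 h.

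The other genes of the pathway were taken from lists of ligands, receptors, binding proteins, SMADs with their regulators, and target genes. On the array 22 further ligands were annotated and none passed the filter. Of the receptors 2 of 13 passed (ACVR1B and TGFBR2), of the binding proteins 2 of 18 (CRIM1 and FSTL1), of the SMADs and regulators 3 of 19 (SMAD1, SMAD2 and SMURF2) and of the target genes 6 of 25 (CCN1, CCN2, ID3, IGFBP3, KLF10 and TSC22D1). These 13 genes have 16 probe sets that passed. In the tests of P, C or P/C against untreated cells at 8 h, of C at 24 h and of P/C against either drug, none of the 16 was called in either direction. The share of all probe sets called in these tests was 0.0% to 0.622%, so nothing is read from this.

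With piroxicam at 8 h (mean effect) 2 of the 16 were called, both higher, and the median of the 16 was 0.11 against −0.05 over all probe sets. Of all probe sets 1.9% were called and 0.785% were called higher. SMAD1, which carries BMP signals to the nucleus, was at 6.02 and 6.31 untreated, 6.42 and 5.71 with C, 7.08 and 7.24 with P and 7.35 and 7.10 with P/C, so the arrays with and without piroxicam did not overlap, as for 17.6% of all probe sets. It rose by 1.08 (SE 0.22, adjusted p = 0.0114, limma), and the call was lost without P replicate 3 or C replicate 3 at 8 h (adjusted p of at most 0.056). SMAD1 reached the signal limit of the filter (6.64) only on arrays with piroxicam, at 8 h and at 24 h. It was thus tested only because it was high there. Its calls here and below, and the counts that hold them, are not independent of the filter. CCN1, a matrix-associated protein, rose by 1.10 on 210764_s_at (SE 0.26, adjusted p = 0.0268), and its second probe set 201289_at had 0.68 (SE 0.19, adjusted p = 0.0483), under the limit on size. The CCN1 call was lost without any single 8 h array other than P/C replicate 3, and in the fit of all probe sets.

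For P against C at 24 h 5 of the 16 were called, all higher with P, with a median of 0.69 over the 16 against −0.12 over all probe sets. Among all probe sets 98 were called higher (3.21%) and 234 lower, and after quantile normalization 141 and 171. SMAD1 was at 7.02, 7.08 and 7.12 with P and at 6.15, 5.46 and 5.68 with C, a difference of 1.31 (SE 0.26, adjusted p = 0.00295). CRIM1, a membrane protein that binds BMPs, differed by 1.26 on 202551_s_at (SE 0.29, adjusted p = 0.00643), with 9.36, 8.60 and 8.60 against 7.91, 7.09 and 7.78. These calls were kept in every alternative run that tested the probe set. SMAD1 was not tested at a signal of at least 200.

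CCN1 210764_s_at (1.07, SE 0.30, adjusted p = 0.0198) and the activin receptor gene ACVR1B (1.03, SE 0.28, adjusted p = 0.0166) were also higher with P than with C. The CCN1 call was lost in 5 of 26 alternatives and the ACVR1B call in 5 of 25, with differences of at least 0.83 and 0.84. ACVR1B, like SMAD1, reached the signal limit of the filter only on arrays with piroxicam. Its call and the count of 5 are thus not independent of the filter. IGFBP3, which binds insulin-like growth factors, had 1.01 (SE 0.34, adjusted p = 0.0421) and lost its call in 10 of 26. It falls outside the rule of 4 genes per comparison and is named as the last of the 5. TGFBR2, the type II TGF-beta receptor gene, had 0.42 (SE 0.31, adjusted p = 0.339), and ID3, the other ID gene that passed the filter, had 0.49 (SE 0.22, adjusted p = 0.115). In the comparison of P/C with untreated cells at 24 h, given as a description for the members, the target gene TSC22D1 on 215111_s_at was past both limits with 1.52 (SE 0.43). It was the only 1 of the 16, where 6.87% of all probe sets were past both limits. With P at 24 h none of the 16 was, against 14.6% of all probe sets. TSC22D1 reached the signal limit of the filter only on treated arrays at 24 h, so nothing is read from its value.

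**Figure D5:**
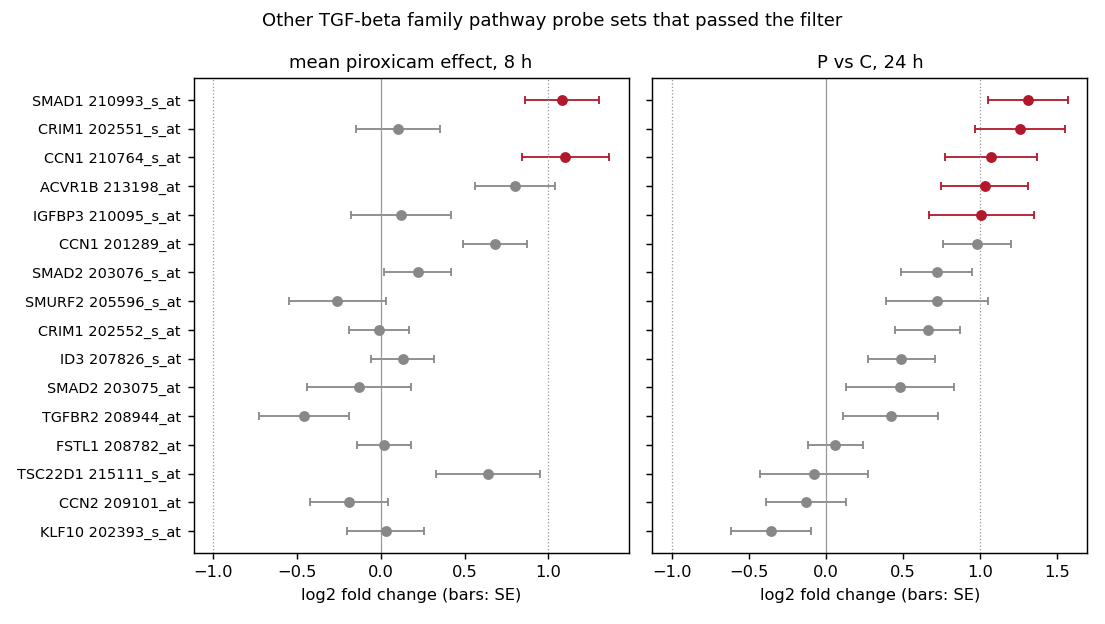
Log2 difference with its SE for the 16 pathway probe sets that passed the filter, for the mean effect of piroxicam at 8 h (left) and P against C at 24 h (right), ordered by the right panel. Red points were called. SMAD1 is called in both panels (1.08 and 1.31), and 13 of 16 points lie above 0 on the right. SMAD1 and ACVR1B reached the signal limit of the filter only on arrays with piroxicam.

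GDF15 is known to respond to p53 and to the integrated stress response, in which ATF4 and CHOP activate amino acid and stress genes, so lists of both were set beside it. For the mean effect of piroxicam at 8 h 7 of 14 probe sets of the integrated stress response list were called, all higher, with a median of 1.09 (0.785% of all probe sets were called higher and their median was −0.05), and 0 of 9 p53 target genes, with a median of 0.18. For the mean effect of cisplatin none of either list was called, and the medians were 0.07 and 0.35, against 0.01 over all probe sets. With C at 24 h the medians were 0.40 and 0.89, against −0.10, again without a call. The p53 list was also higher with P alone at 8 h (median 0.36, 9 of 9 above 0), as with C alone (0.40, 9 of 9). The stress response list had medians of 1.04 and 0.21 there. At 24 h, as a description, the p53 list had medians of 0.58 with P and 1.32 with P/C. Those of the stress response list were 1.22 and 0.79, against −0.22 and −0.12 over all probe sets. The part of either response in the level of GDF15 was not tested.

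The probe sets most like GDF15 over the 18 arrays, of 2749 with 1 gene symbol, were those of GADD45A (Pearson r = 0.96), ATF3 (0.95), BTG1 (0.95), RPS27L (0.92) and SNHG32 (0.92). With the mean of each time taken out they were ATF3 (0.95), GADD45A (0.94), BTG1 (0.92), RPS27L (0.90) and TXNIP (0.89). Among the other members FST 207345_at had −0.65 and −0.52, FST 204948_s_at −0.35 and −0.25, and ID1 −0.37 and −0.14. The arrays share the 8 groups, so these correlations mainly describe the order of groups and carry no test.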

How the data were processed

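Total RNA of 18 cultures was hybridised to HGU133A arrays. The deposited values are log2 signals that the authors made with GCRMA (background correction, normalization between arrays and summary per probe set) after removing arrays with outlying raw intensities. No source used here gives its version. The number of arrays limits the precision, since intensities hold no counts.

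The groups, times and replicate numbers came from the labels. The study's filter (an IQR of 0.25 or more, with 25% or more of the arrays at a signal of 100 or above) kept 3057 of 22215 probe sets after the 68 Affymetrix controls were left out. The paper reports a larger number of probe sets kept with these limits, and the cause of the difference was not tested. limma 3.58.1 in R 4.3.3 was fitted to the log2 values with 1 mean per group (10 residual and 5.76 prior degrees of freedom), with two-sided tests adjusted over all 3057 probe sets in each comparison, after the fit had been tested on simulated data. Differences of the 13 probe sets that did not pass came from a fit of all 22215. The annotation gave 19071 probe sets with 1 symbol, 1043 with several and 2169 with none.

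The members, gene lists and tests were chosen with earlier results of these data known. All 9 members and their probe sets were to be named, and of the pathway lists at most 4 called genes per comparison, those with the greatest differences. What a replicate number stands for is not given in the sources used. At 8 h arrays with the same number had correlations of 0.20 to 0.66 between their deviations from the group means, over the limit of 0.1 in all 6 pairs of groups, so the numbers were taken to pair the 8 h arrays. At 24 h the correlations were −0.22 to 0.39 and no pairing was assumed. The paper calls the replicates biological. As the tests rest on 2 or 3 arrays per group, the p-values cover the spread between these arrays only.

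The alternatives were no filter, a signal of at least 200, quantile normalization, median centring, array weights, only the arrays of a comparison, the replicate number as a block, each array left out in turn, and C 24 h replicate 1 with P/C 24 h replicate 1 left out together.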

Additional observations from a re-analysis of the deposited data

Results flagged for a closer look

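ID1 lay on opposite sides of the mean of untreated cells with P/C at 8 h and at 24 h. Both P/C arrays lay above the mean of the untreated arrays at 8 h, by 0.48 on average on the log2 scale, and both lay below it at 24 h, with a mean difference of −0.76. Between arrays with the same number at 8 h the differences were −0.24 (replicate 1) and 1.21 (replicate 3), of opposite sign. The difference between the times was not tested, and ID1 was not called with P/C at 8 h (adjusted p = 0.669, limma).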

How the results depend on the processing

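The number of called member probe sets, of the 4 that passed the filter, changed with the setting as follows. With P at 8 h it was 0, and 1 (GDF15) with only the arrays of the comparison, in the replicate block of the 8 h arrays, without C 24 h replicate 1 and without both 24 h arrays that stood apart (0 to 1 when 1 array was left out). With P/C at 8 h it was 1, and 0 without the filter, with array weights and in the replicate block within each time (GDF15, adjusted p = 0.0626), and 0 to 1 when 1 array was left out. For the mean effect of piroxicam at 8 h it was 1, and 0 without the filter, and 2 with array weights, with only the arrays of the comparison, in both fits with a replicate block and without both doubted arrays (0 to 2 when 1 array was left out). For the mean effect of cisplatin it was 0, and 1 in the replicate block of the 8 h arrays.

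At 24 h the count with C was 0, and 1 with array weights and without both doubted arrays (0 to 1 when 1 array was left out). For P/C against C it was 0, and 2 without both doubted arrays (0 to 2 when 1 was left out). For P/C against P it was 0 to 1 when 1 array was left out. For P against C it was 2, and 1 at a signal of at least 200, at which FST 207345_at was not tested (1 to 3 when 1 array was left out). Of the pathway probe sets 2 were called for the mean effect of piroxicam at 8 h and 1 at a signal of at least 200, at which SMAD1 was not tested (0 to 2 when 1 array was left out). For P against C these were 5, and 3 at that signal (2 to 5 when 1 array was left out).

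GDF15 in P/C against C at 24 h turned from 0.56 to −0.06 with array weights, −0.55 without both doubted arrays and −0.26 without C replicate 1 (−0.26 to 1.07 over all arrays left out in turn), and in P against C from −0.31 to 0.20 without C replicate 3 (−1.13 to 0.20). FST 207345_at with C at 24 h was −0.09, 0.18 in the replicate block within each time and −0.22 to 0.04 with 1 array left out. The causes were not tested. No other named member value changed sign. The replicate block within each time was also run, although the numbers do not pair the 24 h arrays. Besides the changes given above for P/C and for the mean effect of piroxicam at 8 h, it changed no member call. Quantile normalization moved the median of all probe sets with P at 24 h from −0.22 to −0.06, and scaling changed no member's direction.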
